A study of Mus musculus with 10 samples.

Results

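Fatty acids that enter a cell are bound by carrier proteins, joined to coenzyme A, and carried into the mitochondrion on carnitine. There each turn of the beta-oxidation spiral shortens the chain through a dehydrogenase, a hydratase, a second dehydrogenase and a thiolase, and passes electrons to the respiratory chain through the electron transfer flavoprotein. Ketone bodies are made from, or turned back into, the acetyl-CoA that the spiral releases. In the lung, alveolar type 2 cells make and recycle the lipid of surfactant and are rich in enzymes of fatty acid handling.

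The transcripts of 40 genes of this pathway were followed in 10 mouse lung tumors. The 40 members were the rows of the deposited count table whose symbol was on a list of such genes, out of 39017 genes in the table. The list held 7 genes of uptake and binding, 4 of activation, 6 of the carnitine shuttle, 7 acyl-CoA dehydrogenases, 7 genes of later steps of the spiral, 3 of electron transfer, 3 of ketone bodies, and 3 for malonyl-CoA decarboxylase and acyl-CoA thioesterases. Of these, 39 had enough counts to be tested, and Cpt1b, the muscle form of the outer carnitine enzyme, had at most 13 counts in any library and was not tested.

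The tumors came from 2 groups of male C57BL/6 mice, 5 libraries each, taken 18 weeks and 6 days after tumor initiation. In KPG1 mice the glucose transporter gene Slc2a1, which encodes Glut1, was homozygous floxed, and the KP group was the control. The sample labels call the control genotype heterozygous fl/wt at this locus while the sample descriptions call it WT, and both groups carried the same tumor-starting background. Recombination in both groups was started by an adenovirus, Ad5-SPC-Cre, whose Cre recombinase is driven by the promoter of surfactant protein C, so deletion was directed to cells that use this promoter. Macrodissected tumors were depleted of CD45-positive cells, and what was sequenced was poly(A) RNA of the remaining fraction, which still held other cell types. The labels do not say whether the libraries came from separate mice, so the p-values below measure the spread between these 10 samples. In such bulk samples a lower share of one cell type and less RNA per cell cannot be told apart.

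Library totals ranged from 32427029 to 49534284 counts. The targeted gene Slc2a1 was lower in KPG1, at 50.1 ± 10.1 CPM (counts scaled to a common library size; SD, n = 5) against 102 ± 25.4 in KP, with KPG1 libraries between 40.8 and 66.8 CPM and KP libraries between 71.7 and 127 CPM. The groups did not overlap (log2 fold change -1.01, SE 0.20, exact permutation p = 0.00794, 2-sided, the smallest that 5 against 5 libraries allow), while the adjusted p of limma-voom over 16216 genes was 0.0675. Alveolar type 2 and lung epithelial markers were abundant everywhere, with summed levels of 23965 to 69347 CPM in KP and 53417 to 97683 CPM in KPG1, lowest in KP 1 and KP 4. Of these 15 markers, 12 had higher fitted values in KPG1, 5 had an unadjusted p below the threshold of 0.05 (beside 11.6% of all genes) and 0 passed after adjustment. The keratins Krt8 and Krt18 were lower in every KPG1 library than in any KP library. Abca3, of the same list, was higher in every KPG1 library than in any KP library. Groups that did not overlap were found in 2.81% of all genes. Summed endothelial markers ranged from 555 to 1719 CPM in KP and from 785 to 2411 CPM in KPG1. Of these 13 markers, 12 had higher fitted values in KPG1 and 0 had an unadjusted p under 0.05. Alveolar macrophage markers ranged from 132 to 291 CPM and from 118 to 214 CPM, with 2 of 14 at that level and 2 of 14 higher in KPG1. The highest values in that list were those of Pparg, Car4, Chil3 and Krt79, at up to 96.0, 80.7, 76.8 and 75.4 CPM. Marco and Siglecf stayed at or under 1.64 and 1.11 CPM. Ptprc, which encodes CD45 itself, lay between 5.21 and 11 CPM.

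Across the pathway, no member passed the test between KPG1 and KP. In limma-voom 0 of 39 members had an adjusted p under 0.05, where 28 of all 16216 genes tested did (0.173%; 10 higher in KPG1, or 0.0617%, and 18 lower, or 0.111%), and the members' adjusted p ran from 0.245 to 0.997. The edgeR quasi-likelihood test and DESeq2 also called 0 members, where they called 0.247% and 3.38% of all genes. At an unadjusted p under 0.05, limma-voom, edgeR and DESeq2 each had 2 members higher in KPG1 and 0 lower, which for limma-voom is 5.13% of the members tested beside 11.6% of all genes (5.26% higher and 6.31% lower). With a quality weight per library, 4 members were higher and 1 lower at that level, where 19.1% of all genes were, and the same numbers were found without KP 5, where 18.6% were. With the sample number as a covariate 4 were higher, where 9.91% of all genes differed. These 3 fits called 0 members after adjustment, where they called 1.41%, 1.78% and 0.0493% of all genes. In KP 1 to KP 5 the sample numbers were 11, 12, 15, 16 and 6. In KPG1 1 to KPG1 5 they were 10, 1, 4, 5 and 9. Only KP 5 lay within the range of KPG1, so sample number and genotype are largely confounded in that fit. For edgeR and DESeq2 the unadjusted shares over all genes were 12.5% and 14.0%. No member had groups that did not overlap, a state found in 2.81% of all genes. Fitted values were higher in KPG1 for 29 members and lower for 10 (74.4% higher, beside 52.7% of all genes), and the median log2 fold change was 0.10, beside 0.02 over all genes. This median was 0.05 without KPG1 1 and 0.16 without KP 5.

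The data bounded most members within a 2-fold change. For 30 of 39 members (76.9%, beside 67.2% of all genes) the 95% interval of the log2 fold change lay between -1 and 1. The other 9 were Cd36, Fabp3, Fabp4, Fabp5, Slc27a3, Hadhb, Bdh1, Oxct1 and Acot1, whose spread between libraries leaves a 2-fold change in at least one direction inside the interval. The spread was wider in KP, for the members as for all genes. The SD of log2 CPM over libraries was larger in KP than in KPG1 for 31 members (79.5%), beside 73.5% of all genes. The median SD was 0.37 in KP and 0.24 in KPG1 for the members, beside 0.39 and 0.26 for all genes.

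**Figure D1:**
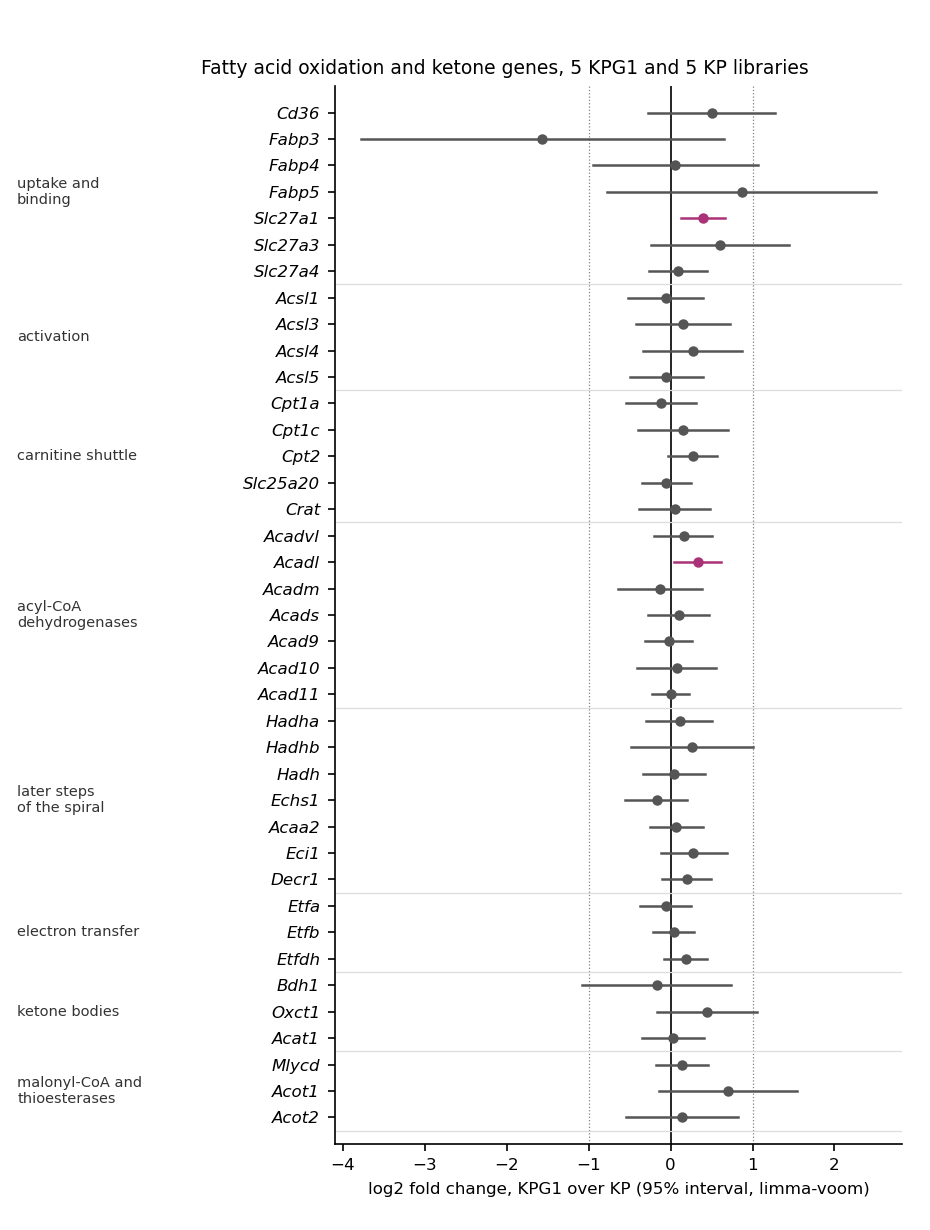
Log2 fold change of each of the 39 tested members, KPG1 over KP, with its 95% interval from limma-voom, grouped by role from uptake at the top to thioesterases at the bottom; dotted lines mark a 2-fold change either way and the purple points are the 2 members with an unadjusted p under 0.05. Most intervals cross 0 and 30 lie wholly between the dotted lines, while Fabp3 and Fabp5 have the widest ones.

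Among the genes of uptake and binding, Cd36 stood apart by its level. Cd36 encodes a membrane protein that binds long-chain fatty acids and aids their uptake, and its RNA ranked 33 among all genes by mean CPM. It was at 482, 1272, 1359, 821 and 2056 CPM in KP 1 to KP 5 and at 1823, 1708, 926, 1445 and 1961 CPM in KPG1 1 to KPG1 5. The groups overlapped widely, with KP 1 and KP 4 low, KP 5 the highest of all 10, and KPG1 3 the lowest of its group. The means were 1198 ± 596 and 1573 ± 408 CPM (SD, n = 5), and the log2 fold change fitted by limma-voom on log values was 0.51 (SE 0.35, 95% interval -0.27 to 1.28, adjusted p = 0.615). It was 0.39 in edgeR and 0.38 in DESeq2, and 0.22 without KP 1. KP 1 and KP 4 were also the libraries with the lowest summed alveolar type 2 markers, and KPG1 3 had the lowest such sum of its group, at 53417 CPM. KP 5 had the highest such sum of KP, at 69347 CPM, and the lowest summed endothelial markers, at 555 CPM. KPG1 1 had the highest alveolar type 2 sum of all, at 97683 CPM, but not the highest Cd36. The part of these cell types in the spread of Cd36 was not tested. Because of its level, Cd36 alone made up 13.5% of all member counts in KP 1 and 32.1% in KP 5, and the members together took 0.392% to 0.618% of all counts in a library.

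Slc27a1, which encodes the fatty acid transport protein FATP1, had the smallest p of the members. It was at 28.3, 32.9, 38.4, 29.0 and 35.3 CPM in KP 1 to KP 5 and at 44.3, 38.4, 47.8, 42.5 and 41.7 CPM in KPG1 1 to KPG1 5. The groups met at their edge, where KP 3 and KPG1 2 had the same value to 3 digits, and all other KPG1 libraries lay above all KP libraries. The means were 32.8 ± 4.27 and 42.9 ± 3.44 CPM, with a log2 fold change of 0.40 (SE 0.12, 95% interval 0.13 to 0.66, unadjusted p = 0.00722, adjusted p = 0.245 by limma-voom). An exact permutation test of the log2 CPM gave p = 0.0159, without adjustment for the other genes. The adjusted p was 0.0677 in DESeq2, 0.223 in edgeR and 0.119 with quality weights, and lay between 0.0677 and 0.490 under all alternatives.

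The other transporters and binding proteins had differences within their spread. Slc27a4, which encodes the transport protein FATP4, ranged from 46.9 to 83.6 CPM (log2 fold change 0.09, SE 0.16), and Slc27a3, of the same family and far lower, from 1.38 to 6.19 CPM (0.60, SE 0.38). Fabp5, the epidermal fatty acid binding protein, was at 274, 388, 212, 154 and 13.8 CPM in KP 1 to KP 5 and at 331, 298, 179, 178 and 309 CPM in KPG1 1 to KPG1 5. KP 5 alone was low, and the other 9 libraries shared one range. Its log2 fold change of 0.87 (SE 0.75, adjusted p = 0.693) fell to 0.02 without KP 5. Fabp4, the adipocyte and endothelial form, was also lowest in KP 5, at 3.22 CPM against 6.26 to 20.4 CPM elsewhere (log2 fold change 0.06, SE 0.46). KP 5 was the library with the lowest summed endothelial markers, and the part of those cells in these values was not tested. Fabp3, the heart form, was at or under 0.647 CPM (0 to 24 counts) in all libraries, and of 14 cardiac and skeletal muscle markers 8 were under 1 CPM in every library. The most abundant of the other muscle markers were Acta1, at up to 52.3 CPM and highest in KP 1, and Tnnt2, at up to 16.5 CPM, and the list summed to 12.5 to 82.9 CPM in KP and 10.4 to 25.2 CPM in KPG1. Of 10 adipocyte markers, 7 were under 1 CPM in every library, Adipoq and Plin1 among them. Cidec reached 12.5 CPM in KP 1 and 6.68 CPM in KP 4 and Cidea 3.42 CPM in KP 4, and the list summed to 1.63 to 14.1 CPM in KP and 0.772 to 2.87 CPM in KPG1.

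**Figure D2:**
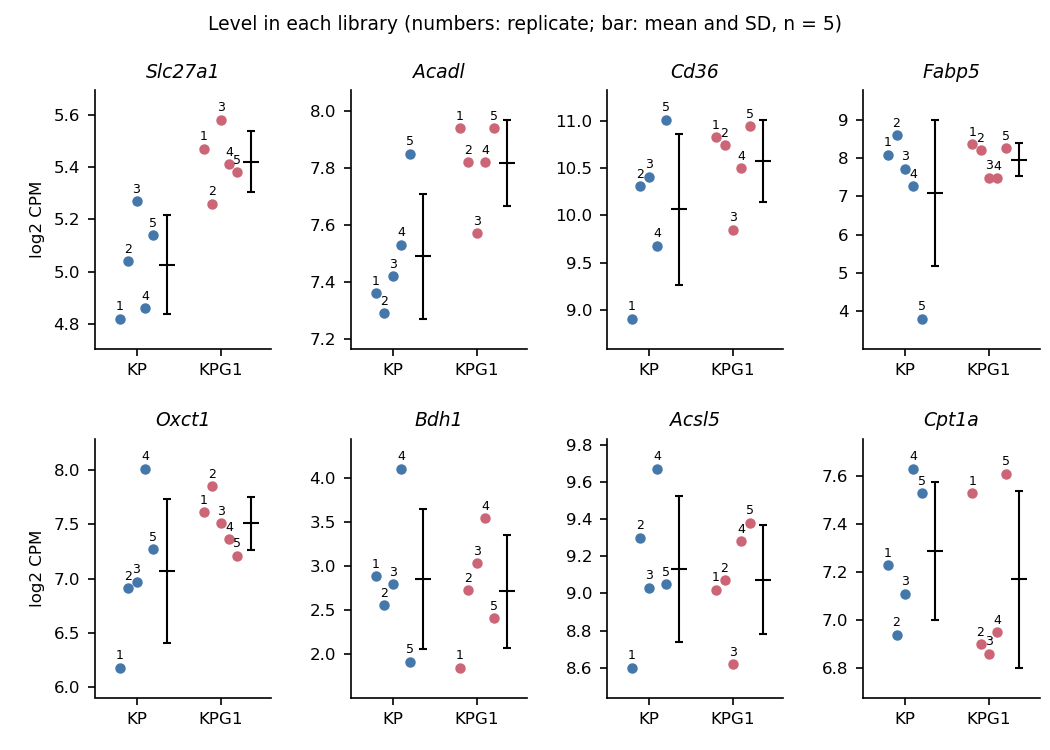
Log2 CPM of 8 members in each library (y axis, one scale per gene, not starting at 0), with KP on the left and KPG1 on the right of each panel, the replicate number above each point and the mean and SD (n = 5) as a bar. Slc27a1 sits higher in KPG1 with the groups meeting at the edge, and Acadl sits higher with KP 5 among the KPG1 libraries. Fabp5 has a single low library in KP 5, and Oxct1 and Bdh1 are highest in KP 4.

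The acyl-CoA synthetases join fatty acids to coenzyme A, and none of the 4 measured passed the test in either direction. Acsl5, a mitochondrial and endoplasmic reticulum synthetase with the highest level per length of this group, was at 388, 628, 521, 814 and 528 CPM in KP 1 to KP 5 and at 519, 538, 392, 620.1 and 664 CPM in KPG1 1 to KPG1 5. The groups overlapped fully, with KP 4 high and KP 1 and KPG1 3 low (log2 fold change -0.05, SE 0.20, 95% interval -0.50 to 0.40). Acsl4, which prefers arachidonate and other polyunsaturated chains, ranged from 271 CPM in KP 1 to 855 CPM in KP 5 (0.27, SE 0.28). Acsl3, linked to lipid droplets, was at 92.6 to 214 CPM (0.15, SE 0.26), and Acsl1, the main form of liver, heart and fat, at 24.9 to 57.7 CPM (-0.06, SE 0.21). Per kilobase of exon, Acsl5 and Acsl4 lay at 115 and 103 RPKM over all libraries, with Acsl3 at 29.7 and Acsl1 at 3.70 RPKM.

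The carnitine shuttle was close in level between the groups. Cpt1a encodes the outer membrane enzyme that commits a fatty acid to oxidation and is blocked by malonyl-CoA. It was at 149.6, 123, 138, 197 and 184 CPM in KP 1 to KP 5 and at 184, 119, 116, 124 and 195 CPM in KPG1 1 to KPG1 5. KPG1 split into KPG1 1 and KPG1 5, which were high, and 3 libraries that were low, and KP spanned the gap between them (log2 fold change -0.12, SE 0.19, 95% interval -0.54 to 0.31, adjusted p = 0.858). Cpt2, the inner membrane partner that reforms acyl-CoA, had a log2 fold change of 0.27 (SE 0.14, 95% interval -0.03 to 0.57, adjusted p = 0.475), from 24.8 ± 3.80 to 29.9 ± 2.90 CPM. The log2 ratio of Cpt1a to Cpt2 lay between 2.47 and 2.87 in the KP libraries and between 1.91 and 2.93 in the KPG1 libraries. Slc25a20, the carrier that exchanges acylcarnitine for carnitine across the inner membrane, was at 21.0 to 32.0 CPM (-0.05, SE 0.14), and Crat, carnitine acetyltransferase, at 41.9 to 94.8 CPM (0.05, SE 0.20). Cpt1c, a form best known from neurons, was at 6.23 to 14.9 CPM (0.15, SE 0.25).

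The acyl-CoA dehydrogenases open each turn of the spiral, and Acadl, the long-chain enzyme, was the other member with an unadjusted p under 0.05. It was at 164, 156, 172, 185 and 231 CPM in KP 1 to KP 5 and at 246, 226, 189.7, 226 and 245 CPM in KPG1 1 to KPG1 5. KP 5 lay among the KPG1 libraries, and the other 4 KP libraries lay below all KPG1 libraries. The means were 181 ± 29.6 and 227 ± 22.8 CPM, with a log2 fold change of 0.33 (SE 0.13, 95% interval 0.04 to 0.62, unadjusted p = 0.0296, adjusted p = 0.371 by limma-voom), and the exact permutation test gave p = 0.0317. The unadjusted p was above 0.05 in 7 of the 10 fits that left out a single library, reaching 0.0756 without KP 2, and was 0.00477 without KP 5. With the sample number as a covariate it was 0.144. A predicted gene, Gm15793, overlaps Acadl on the same strand, so reads shared with it could not be assigned with certainty. Annotated genes also overlap Acsl3, Cpt1b, Acad9, Acad11, Hadhb, Decr1, Etfb and Etfdh on the same strand. At 102 RPKM over all libraries, Acadl had the highest level per length of the 7 dehydrogenases.

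The dehydrogenases of other chain lengths had smaller differences. Acadvl, for very long chains, was at 57.4 to 79.2 CPM in KP and at 69.4 to 79.0 CPM in 4 KPG1 libraries, with KPG1 1 apart at 113 CPM (log2 fold change 0.16, SE 0.16). Acadm, for medium chains, was at 83.7, 98.2, 88.7, 136 and 205 CPM in KP 1 to KP 5 and between 85.9 and 131 CPM in KPG1 (-0.13, SE 0.23). KP 5 and KP 4 were its highest libraries, so the KP mean of 122 ± 50.6 CPM rested on them. Acads, for short chains, was at 29.1 to 47.1 CPM (0.10, SE 0.17). Acad9, which also helps to assemble respiratory complex I, was at 44.4 to 64.3 CPM (-0.02, SE 0.13), and Acad10 at 16.6 to 35.9 CPM with KP 5 highest (0.08, SE 0.22). Acad11 was the most even of the dehydrogenases, at 35.4 to 42.7 CPM in all 10 libraries (0.00, SE 0.10, 95% interval -0.22 to 0.23), though 3 predicted genes overlap it on the same strand.

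The later steps of the spiral are carried out for long chains by the mitochondrial trifunctional protein, whose alpha subunit is encoded by Hadha and beta subunit by Hadhb. The genes lie head to head on chromosome 5, Hadha on the minus strand at chr5:30118304-30155162 and Hadhb on the plus strand at chr5:30155248-30184593 (mm10), with 85 bases between their outermost annotated ends. The RefSeq window from 250 bases before to 50 after the Hadhb start (GRCm38.p6, plus strand, chr5:30155003-30155302) is shown because both genes start in or beside it and their RNA levels parted in some libraries. Capitals mark the 85 bases between the genes.
Hadhb: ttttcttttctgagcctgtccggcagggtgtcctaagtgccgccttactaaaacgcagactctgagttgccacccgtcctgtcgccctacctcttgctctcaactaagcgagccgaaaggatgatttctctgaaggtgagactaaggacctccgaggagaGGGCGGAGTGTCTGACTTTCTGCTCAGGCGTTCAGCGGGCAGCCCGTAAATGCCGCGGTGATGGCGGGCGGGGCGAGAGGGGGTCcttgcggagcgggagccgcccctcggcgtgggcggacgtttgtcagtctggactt

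Hadhb was at 61.3, 27.5, 27.8, 79.9 and 76.1 CPM in KP 1 to KP 5 and at 72.9, 65.3, 65.7, 35.1 and 66.4 CPM in KPG1 1 to KPG1 5. KP 2, KP 3 and KPG1 4 were low, and the other 7 libraries lay together. Hadha was at 156, 174, 195, 219 and 328 CPM in KP 1 to KP 5 and at 248, 210.4, 218, 203 and 235 CPM in KPG1 1 to KPG1 5. Hadha in those 3 libraries, at 174, 195 and 203 CPM, lay above its level in KP 1, where Hadhb was not low, and below its level in the other 6. The log2 ratio of Hadhb to Hadha was -2.66, -2.81 and -2.53 in KP 2, KP 3 and KPG1 4 and between -2.11 and -1.34 in the other 7. These low values rested on 874, 1031 and 1228 counts. Between the groups the log2 fold change was 0.11 for Hadha (SE 0.18) and 0.26 for Hadhb (SE 0.34). Single libraries moved both values, to 0.01 without KP 1, 0.04 without KP 2, 0.05 without KPG1 1 and 0.26 without KP 5 for Hadha. For Hadhb the value was 0.06 without KP 2, 0.05 without KP 3, 0.17 without KPG1 1, 0.43 without KP 4, 0.40 without KP 5 and 0.45 without KPG1 4. The files hold gene totals only, so a difference in isoform or in the annotated exons used could not be examined.

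**Figure D3:**
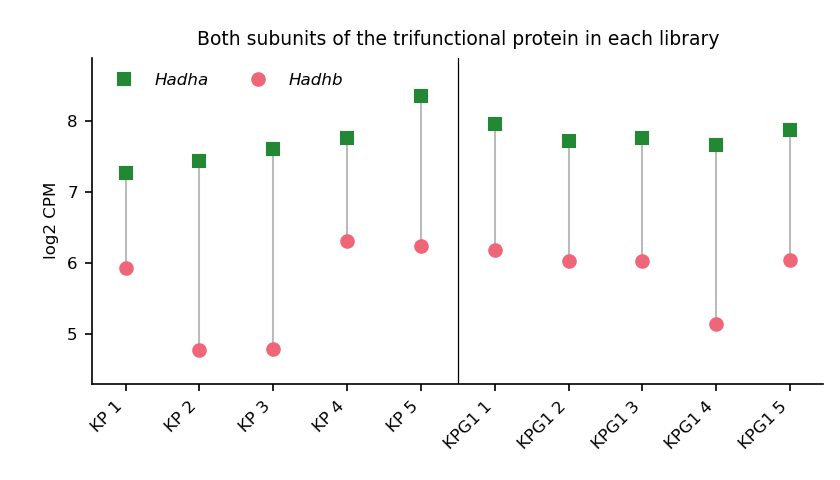
Log2 CPM of Hadha (green squares) and Hadhb (red circles) in each of the 10 libraries, KP on the left and KPG1 on the right of the vertical line, with a grey line joining the 2 subunits of a library. The gap is widest in KP 2, KP 3 and KPG1 4, where Hadhb lies between 4.78 and 5.14 and Hadha lies above its level in KP 1.

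For the other 5 enzymes of the later steps the 95% interval lay within a 2-fold change. Acaa2, a thiolase that ends the turn, was at 119, 108, 121, 110.1 and 163 CPM in KP 1 to KP 5 and at 169, 124, 119, 117 and 125 CPM in KPG1 1 to KPG1 5. KP 5 and KPG1 1 were high together, and the remaining 8 libraries lay between 108 and 125 CPM (log2 fold change 0.07, SE 0.15). Hadh, the medium and short chain hydroxyacyl-CoA dehydrogenase, was at 128 to 245 CPM with KP 5 highest (0.04, SE 0.17). Echs1, the short-chain hydratase, was at 88.4 to 174 CPM with KP 5 highest (-0.17, SE 0.17). Eci1 and Decr1 handle the double bonds of unsaturated chains. Eci1 was at 26.1 to 61.5 CPM, lowest in KP 1 and highest in KPG1 1 (0.28, SE 0.19), and Decr1 at 44.2 to 68.4 CPM (0.20, SE 0.13). By merged exon length Acaa2 was the most abundant of this group at 84.1 RPKM, while by the length of the longest coding transcript Hadh was higher at 90.9 RPKM.

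Of the 14 enzymes of the spiral itself, 11 had higher and 3 lower fitted values, and their median log2 fold change was 0.09. The levels of these enzymes also varied between single tumors. KP 5 and KPG1 1 each held the highest value of 5 of the 14 enzymes, and KP 1, KP 2 and KP 3 held the lowest value of 5, 3 and 3 (backgrounds 16.7%, 6.49% and 10.9% of all genes). The mean deviation of the 14 from their 10-library means was 0.35 log2 units in KP 5 and 0.21 in KPG1 1, and -0.24, -0.22 and -0.16 in KP 1, KP 2 and KP 3. Summed over the 14, the level was 1301 ± 279 CPM in KP and 1363 ± 108 CPM in KPG1. KP 5 had the highest value of 11 of all 39 members (background 22.2% of all genes), KPG1 1 of 10 (background 11.2%), and KP 1 had the lowest value of 12 (background 16.7%).

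**Figure D4:**
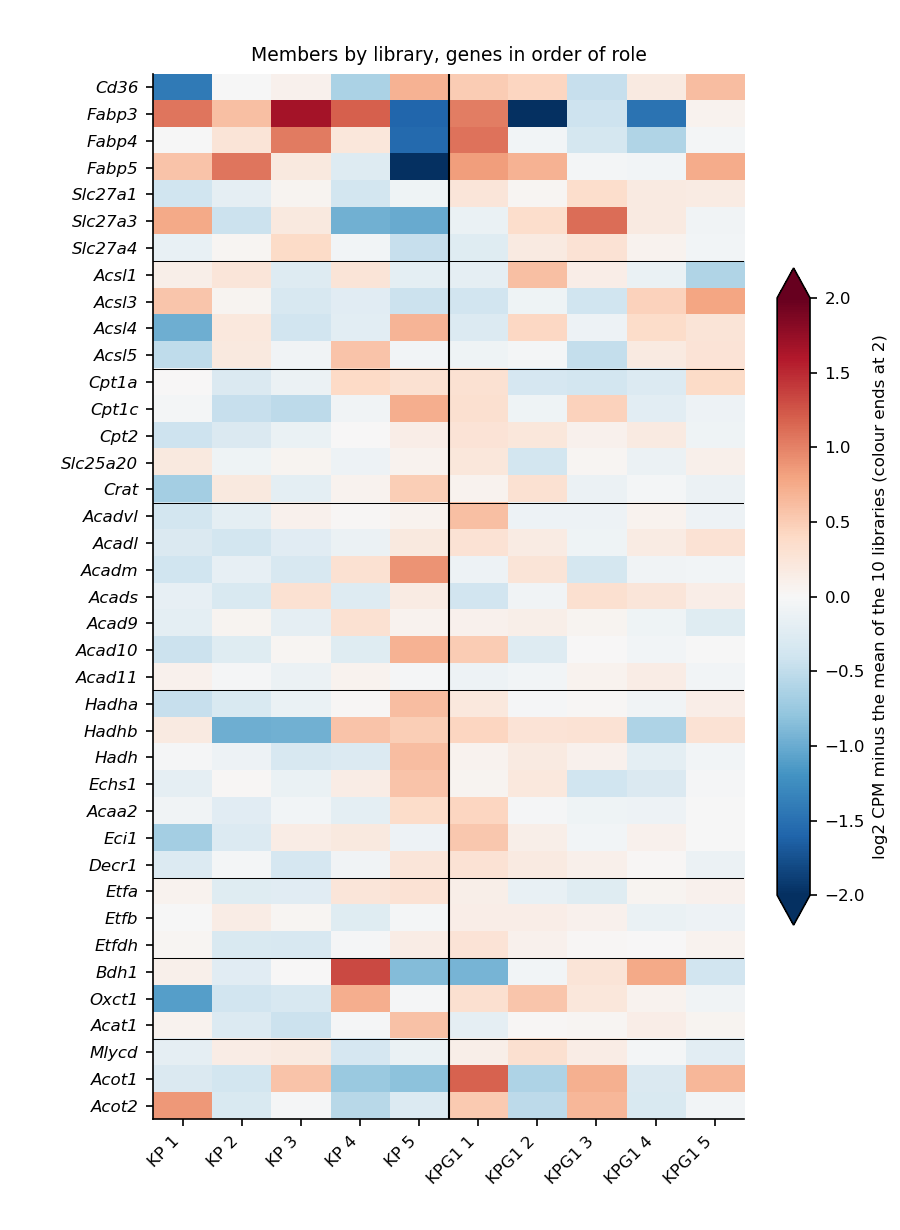
Log2 CPM of each tested member minus its mean over the 10 libraries, as color (red above, blue below, color ending at 2), with libraries as columns, KP left of the black line, and genes as rows in order of role. The spiral enzymes are mostly red in KP 5 and KPG1 1 and pale blue in KP 1 to KP 3, and strong colors fall in Cd36, the binding proteins and Bdh1.

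Electron transfer flavoprotein takes electrons from the acyl-CoA dehydrogenases, and its genes were among the most even members. Etfb, the beta subunit, was at 96.4, 107, 101, 82.0 and 94.7 CPM in KP 1 to KP 5 and at 106, 106, 103, 88.5 and 90.7 CPM in KPG1 1 to KPG1 5. The groups overlapped fully, with KP 4 lowest (log2 fold change 0.04, SE 0.11, 95% interval -0.21 to 0.29). Etfa, the alpha subunit of the same dimer, was at 59.1 to 85.6 CPM (-0.06, SE 0.14), and Etfdh, the oxidoreductase that hands the electrons to ubiquinone, at 62.3 to 94.3 CPM (0.19, SE 0.12). The log2 ratio of Etfa to Etfb ran from -0.86 in KP 2 to 0.02 in KP 4.

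Promoter sequence was examined for what the members share. RefSeq promoter windows of 300 bases (GRCm38.p6) were matched for 32 members, with 36 windows in all, and none were matched for Fabp4, Fabp5, Cpt1b, Crat, Acad9, Acaa2, Decr1 and Acat1. The direct repeat bound by PPAR and RXR, receptors that switch on fatty acid oxidation genes in other tissues, was searched on both strands as 2 copies of AGGTCA with 1 base between them, and in a looser form with AGGNCA as the repeated unit, which includes every exact match. Neither form was found in the 36 member windows, and they occurred in 0.0396% and 0.381% of all 32851 windows. Likewise TCA joined to AGGTCA, a site of estrogen-related receptors that can overlap the repeat, was in no member window and in 0.423% of all windows. At such low shares, 36 windows would mostly hold no match whatever genes they belong to. The absence of these motifs therefore does not set the members apart. Sites outside the windows or with other letters were not searched. The E-box CACGTG was in 1 member window, of Slc27a1, and in 7.15% of all windows. GCGC and TGCGC with 1 base between them, a site of nuclear respiratory factor NRF1, were in 4 member windows (11.1%, beside 4.60% of all windows), at Acad10, Etfb, Etfdh and Slc27a3. These 4 stretches are printed with the site in capitals, each in the direction of its gene. At Acad10, Etfb and Slc27a3 the site reads on the opposite strand, so that the capitals show its reverse complement, and at Etfdh it reads on both strands. The stretches lie at chr5:121660535-121660564 (minus), chr7:43444051-43444080 (plus), chr3:79628876-79628905 (minus) and chr3:90389897-90389926 (minus).
Acad10: ccgccgggtcGCGCACGCGCacgcggaaag
Etfb: gtgttgcggcGCGCAGGCGCagagacagat
Etfdh: tgcttctaggGCGCATGCGCacacgcgaga
Slc27a3: gcgggtgccaGCGCACGCGCgccacgttcc
The log2 fold changes of these 4 members were 0.08, 0.04, 0.19 and 0.60, none past the test, and a match describes the letters only.

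Ketone body genes varied between single tumors in both groups. Oxct1 encodes the enzyme that activates acetoacetate so that ketone bodies can be burned. It was at 72.5, 120, 126, 259 and 154 CPM in KP 1 to KP 5 and at 195, 231, 182, 165 and 149 CPM in KPG1 1 to KPG1 5. KP spanned the whole range, from KP 1 as the lowest to KP 4 as the highest, and the KPG1 libraries lay between them (log2 fold change 0.44, SE 0.28, 95% interval -0.17 to 1.05, adjusted p = 0.573). Bdh1, which interconverts the ketone bodies hydroxybutyrate and acetoacetate, was at 7.31, 5.81, 6.88, 17.1 and 3.70 CPM in KP 1 to KP 5 and at 3.52, 6.54, 8.11, 11.5 and 5.21 CPM in KPG1 1 to KPG1 5. KP 4 was again highest and the groups overlapped (-0.17, SE 0.42). Acat1, the thiolase of acetoacetyl-CoA, was at 72.1 to 145 CPM, highest in KP 5 (0.03, SE 0.17). The log2 ratio of Oxct1 to Acat1 was -0.48 in KP 1 and 1.45 in KP 4, and between 0.56 and 1.23 in KPG1.

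Mlycd encodes the decarboxylase that removes malonyl-CoA, the inhibitor of Cpt1a. It was at 20.9, 26.1, 26.7, 18.7 and 21.7 CPM in KP 1 to KP 5 and at 25.7, 29.4, 26.1, 22.9 and 20.5 CPM in KPG1 1 to KPG1 5, and most libraries of both groups shared one range (log2 fold change 0.14, SE 0.15). The thioesterases Acot1, in the cytosol, and Acot2, in mitochondria, lie next to each other on chromosome 12 and are near-identical copies, so that reads could be split between them. Acot1 was at 4.25 to 11.1 CPM in KP and at 4.86 to 17 CPM in KPG1 (0.70, SE 0.38, adjusted p = 0.510), and Acot2 at 7.91 to 21.3 CPM and 8.12 to 18.6 CPM (0.14, SE 0.31). Reads that fit both were not resolvable in the gene totals.

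Per kilobase of merged exons, the members covered a wide range of levels. Cd36 led at 386 RPKM over all libraries, followed by Acsl5 at 115, Acsl4 at 103 and Acadl at 102 RPKM. Acaa2 at 84.1, Etfb at 83.8 and Fabp5 at 65.5 RPKM came next, and Oxct1 was at 44.6 and Etfa at 38.5 RPKM. The SDs over libraries were of the size of the gaps between Acsl5, Acsl4 and Acadl, with 118 ± 32.6, 96.6 ± 41.3 and 90.5 ± 14.8 RPKM in KP, and their order is not separated from their spread. At the low end lay Cpt1c, Bdh1, Slc27a3, Fabp3 and Cpt1b, at 1.66, 1.95, 1.21, 0.307 and 0.0542 RPKM. The length used sets the level. With the longest coding transcript, of 987 bases for Fabp5 and 1557 for Echs1, they were at 237 and 76.4 RPKM, while with merged exons of 3567 and 8286 bases they were at 65.5 and 14.3 RPKM.

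**Figure D5:**
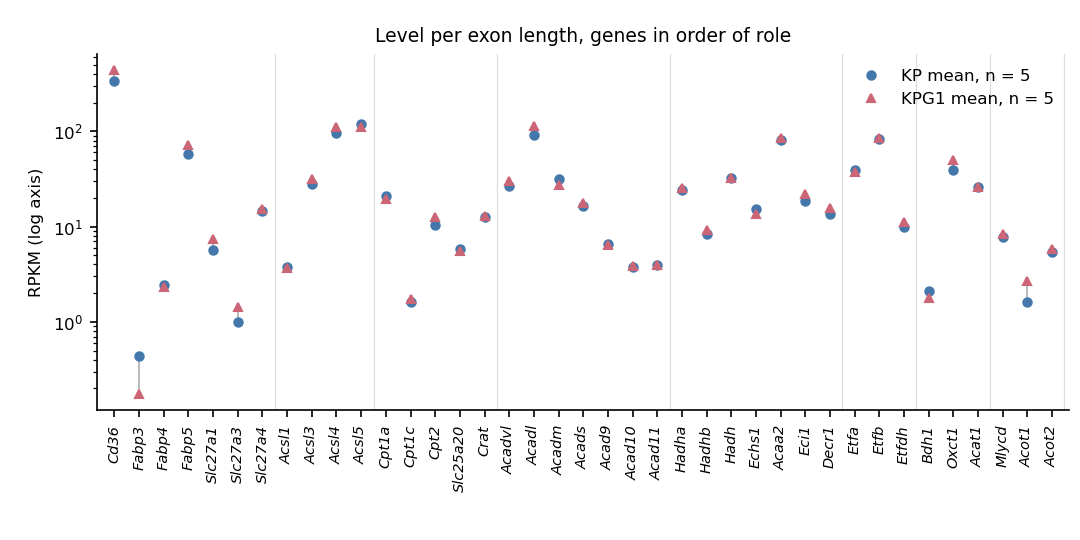
Mean RPKM by merged exon length (log axis) of the 39 tested members in KP (blue circles) and KPG1 (red triangles), n = 5 each, in order of role with grey lines between roles. The 2 means of a gene lie close together for most members, and Cd36 has the highest level, at 334 RPKM in KP and 438 RPKM in KPG1.

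Other genes of the pathway, from a list of 53 lipolysis, import, regulator, branched-chain and ketone genes, were tested in the same fit. Of these, 46 were tested, 0 passed after adjustment. An unadjusted p below 0.05 was found for 4 (8.70%, beside 11.6% of all genes), of which 2 were higher in KPG1 and 2 lower. Fitted values were higher for 25 and lower for 21, with 0.10 as the median on the log2 scale. In 2 of the 46, Dbi and Acot9, the groups did not overlap, beside 2.81% of all genes.

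Dbi, which encodes the acyl-CoA binding protein, was at 97.7, 86.4, 99.3, 83.5 and 92.2 CPM in KP 1 to KP 5 and at 184, 117, 121, 114 and 158 CPM in KPG1 1 to KPG1 5. All KPG1 libraries lay above all KP libraries, with KPG1 1 and KPG1 5 the highest (log2 fold change 0.57, SE 0.15, adjusted p = 0.187). The exact permutation test gave p = 0.00794, which follows from that lack of overlap and is not adjusted for the other genes. Acot9, a mitochondrial thioesterase, was at 46.9 ± 5.39 CPM in KP and 35.6 ± 3.82 CPM in KPG1, where every KPG1 library lay below every KP library (-0.40, SE 0.12, adjusted p = 0.250). Ppargc1a, which encodes the coactivator PGC-1 alpha, was at 4.80 to 16.9 CPM in KP and at 13.7 to 21.0 CPM in KPG1, with only KP 5 within the KPG1 range (0.84, SE 0.28, adjusted p = 0.282, exact permutation p = 0.0317). Slc27a6, another transporter of the family, was at 1.38 ± 1.01 and 0.356 ± 0.204 CPM (-1.92, SE 0.68, adjusted p = 0.312). Among regulators the nuclear receptor Ppara had a log2 fold change of 0.46 (SE 0.23, adjusted p = 0.478) and Ppard of -0.01 (SE 0.19). The kinase Pdk4, which blocks pyruvate dehydrogenase when fat is burned, had -1.37 (SE 0.74, adjusted p = 0.505). Pdk4 was at 229.5 CPM in KP 1 alone, beside 16.1 to 46.5 CPM in KP 2 to KP 5 and 5.8 to 45.9 CPM in KPG1. Acaca and Acacb, which make malonyl-CoA, had 0.49 (SE 0.23, adjusted p = 0.439) and 0.28 (SE 0.32, adjusted p = 0.775).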

How the data were processed

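Gene counts of poly(A) RNA from CD45-negative lung tumor fractions were taken as deposited by the authors, per the labels from stranded mRNA libraries aligned to mm10; the submitters' processing notes name bcl2fastq 2.17, cutadapt 1.4.2, HISAT2, featureCounts 1.4.4 and edgeR. The strand setting and annotation release are not given in the sources used here. All 390170 values of the joint count table equalled those of the 10 single-library files. A deposited table of log2 values and the engineered alleles that start the tumors are not reported here.

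Groups followed the labels (KP and KPG1, n = 5 each). Genes passing filterByExpr in edgeR 4.0.16 were scaled by TMM and tested by limma-voom (limma 3.58.1, R 4.3.3) on genotype, with Benjamini-Hochberg adjustment over 16216 genes and a threshold of 0.05. The study's TPM filter was replaced by this count filter. Single values of Slc2a1, Slc27a1, Acadl, Dbi and Ppargc1a were tested by 2-sided exact permutation, without adjustment for the other genes. Apart from Slc2a1, these were taken from the genes with an unadjusted limma-voom p under 0.05. CPM used TMM-scaled totals, log2 CPM a prior count of 2, and RPKM the merged exons of GENCODE M21, which held 37693 of the 39017 gene identifiers. Library totals of 32427029 to 49534284 set the counting precision. Alternatives were RLE scaling, totals only, edgeR, DESeq2 1.42.0, 2 filters, library weights, replicate number, sample number and leaving out each library. The fits were tested on simulated data. All 40 members were named; every library's value was given for members with an unadjusted p under 0.05 or no overlap and the most abundant member of each role by RPKM, and for others chosen after their values were seen (Fabp5, Hadha, Hadhb, Bdh1). Of the other pathway genes up to 6 with the smallest p under 0.05 were named by rule, and Ppara, Ppard, Pdk4, Acaca and Acacb for their roles, after their values were seen. Marker lists covered lung epithelium, endothelium, alveolar macrophages, adipocytes, muscle and fibroblasts (fibroblast sums 116 to 285 CPM in KP and 184 to 314 CPM in KPG1). Of 7 fibroblast markers tested by limma-voom, 7 had higher fitted values in KPG1, 1 had an unadjusted p under 0.05 and 0 passed after adjustment. The members and all lists were chosen with earlier results of these data known.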

Additional observations from a re-analysis of the deposited data

Results flagged for a closer look

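A library was marked where, within its group of 5, its gap to the nearest other library took up more of the group's range than Dixon's critical share of 0.71. Among 78 groups of 5 searched (39 members in each genotype) 5 were marked, where chance alone gives about 3.9. For Fabp5 this was KP 5, with a log2 CPM of 3.79 beside 7.27 to 8.60 in KP 1 to KP 4. For Hadhb it was KPG1 4, with 5.14 beside 6.03 to 6.19 in the rest of KPG1, and KP 2 and KP 3, which were similarly low, were not marked because each is the neighbor of the other. In KPG1 1 the enzymes Acadvl, Acaa2 and Eci1 were high: Acadvl had a log2 CPM of 6.83 there and 6.12 to 6.30 in KPG1 2 to KPG1 5, Acaa2 had 7.40 there and 6.87 to 6.97 elsewhere in KPG1, and Eci1 had 5.94 there and 5.35 to 5.52 elsewhere in KPG1. KPG1 1 also had the highest summed alveolar type 2 markers, at 97683 CPM, and the highest summed endothelial markers, at 2411 CPM, and their part in these values was not tested.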

How the results depend on the processing

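Of 734 member values under 19 alternatives, 685 were counted as keeping direction and threshold side, and 49 as changing sign (in 22 members). Acad11, at 0.00 in the reported fit, was not counted as changing sign, though it ran from -0.04 to 0.02 when a library was left out. The smallest adjusted p, 0.0677, was that of Slc27a1 in DESeq2, so 0 passed 0.05. The gene-wide counts depended on the tool and on single libraries. Genes higher in KPG1 (10 in the reported fit) numbered 125 in DESeq2, 51 with library weights, 5 at a mean CPM of at least 20, and 4 with sample number as covariate. Genes lower (18) numbered 423, 177, 31 and 4, with 29 in edgeR and 31 without a filter. Leaving out a library gave 3 to 71 higher and 1 to 223 lower, most without KP 5, where 1.78% of genes passed. Members with an unadjusted p under 0.05 (2 higher, 0 lower) were 4 and 1 with weights, 4 higher with sample number (Fabp4, Fabp5, Slc27a1 and Acot1), and 1 to 4 and 0 to 1 when a library was left out, 4 and 1 of them without KP 5. Members without overlap were 0 to 1, with 1 without KP 3, KP 5 or KPG1 2. Groups separate more easily with a library left out, and the matching share over all genes is not given here. Other pathway genes with an unadjusted p under 0.05 (4) were 7 in DESeq2, 7 without a filter, 2 at a mean CPM of at least 20, 8 with weights and 4 to 11 without a library. Over all genes the share at that level was 14.0% in DESeq2, 19.1% with weights, 18.6% without KP 5 and 9.91% with sample number. It is not given here for the 2 other filters and for the fits without another library. The log2 fold change of Slc2a1 passed the threshold in DESeq2 (-1.04), with weights (-1.13) and without KP 5 (-1.14), and ran from -1.14 to -0.92 when a library was left out.

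The correlations of deviations between same-numbered samples were -0.122, 0.076, 0.0573, 0.0635 and -0.161, so no pairing by replicate number was seen. These values cannot exclude a shared litter or batch, and the labels name neither. With a replicate block the counts were 4 genes higher and 1 lower, 8 other pathway genes, and -0.02 for Fabp4. With sample number as covariate the log2 fold change was 1.06 for Fabp3, -0.13 for Acsl4, 0.17 for Acsl5, 0.12 for Cpt1a, -0.16 for Cpt1c, 0.07 for Slc25a20, -0.16 for Crat, -0.04 for Acads, -0.30 for Hadh, -0.01 for Etfb, 0.03 for Bdh1 and -0.28 for Acat1. In edgeR it was -0.07 for Fabp4 and -0.01 for Acat1, and in DESeq2 -0.07 for Fabp4, -0.01 for Crat, -0.01 for Hadh and -0.02 for Acat1. With weights it was -0.48 for Fabp4, 0.03 for Acadm, 0.02 for Etfa and -0.02 for Etfb. The causes were not tested, and the sample number is largely confounded with genotype. Leaving out a library gave these ranges: -0.37 to 0.32 for Fabp4, -0.02 to 0.19 for Slc27a4, -0.23 to 0.08 for Acsl1, -0.02 to 0.31 for Acsl3, -0.18 to 0.08 for Acsl5, -0.13 to 0.04 for Slc25a20, -0.12 to 0.16 for Crat, -0.25 to 0.06 for Acadm, -0.08 to 0.04 for Acad9, -0.06 to 0.25 for Acad10, -0.05 to 0.18 for Hadh, -0.04 to 0.16 for Acaa2, -0.02 to 0.08 for Etfb, -0.44 to 0.16 for Bdh1, -0.08 to 0.16 for Acat1, -0.02 to 0.38 for Acot2.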
